A study of Mus musculus with 29 samples.

Results

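The axon guidance ligands and receptors were 47 mouse genes of the SLIT, netrin, semaphorin and ephrin families and their receptors, among 22225 protein-coding genes of the annotation. They were taken from a fixed list, which was chosen with earlier results of these data known. A ChIP-seq peak was given to one of the 47 genes when the transcription start nearest to its summit was a start of that gene. By this rule 852 of 175162 kept peaks, over 9 peak lists, lay at 46 of the 47 genes. Joining peaks of different lists whose 300 bp windows overlapped gave 399 distinct sites of 78408.

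The lists came from embryoid bodies made from mouse embryonic stem cell lines of the parental line A2loxCre, in which doxycycline switches on inserted genes together with a Venus reporter. The lines carried Atoh1 (iAtoh1), Pou4f3 (iPou4f3), Gfi1 and Atoh1 (iG+A), Gfi1 and Pou4f3 (iG+P), Pou4f3 and Atoh1 (iP+A) or all 3 factors (iGPA). Every sample was given 2 µg/ml doxycycline for 48 h and was taken at day 6. Atoh1 was precipitated by a FLAG tag in the 4 lines that carry it, Pou4f3 by a MYC tag in its 4 lines, and Gfi1 by an antibody against the protein in iGPA alone. Peaks had been called on replicates merged into 1 list per line and factor, and the Gfi1 list came from 1 library, so no value has a spread between replicates and no test was made. Each interval printed after a share is a 95% interval by the exact Clopper-Pearson method. It holds the error of counting and nothing else, because sites or genes close together do not vary independently. No list without doxycycline was analysed here, and peak lists hold no expression by which the cell type could be checked.

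Axon guidance genes direct growing axons. SLIT proteins repel axons that carry ROBO receptors, netrins attract through Dcc and Neo1 and repel through Unc5 receptors, semaphorins act mostly through plexins with neuropilins as partners, and ephrins signal to Eph receptors on the neighbouring cell. In the inner ear, semaphorins, ephrins and their receptors are known for guiding the nerve fibres that reach the sensory hair cells. Atoh1 is a basic helix-loop-helix factor that binds E-boxes, Pou4f3 is a POU homeodomain factor that binds AT-rich sequences, and Gfi1 is a zinc finger repressor. All 3 are needed in hair cells.

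The kept lists ran from 3012 peaks (Gfi1) to 32632 (iG+P Pou4f3), so that counts between lists also carry the length of the lists. At the inserted genes themselves, called summits lay in Atoh1 exons in each of the 7 lists from lines with inserted Atoh1 and in neither of the other lists, whereas exons of Pou4f3 and Gfi1 also had summits in lists from lines without them, with a fold enrichment of 2.69 at Pou4f3 exons in iAtoh1. Total read numbers were not analysed here.

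Sites of the guidance genes are shown first by their sequence. Each is 150 bp around a summit on the plus strand of NCBIM37 (mm9), in lower case. Capitals mark E-box cores, which are CAGCTG and also CAGATG (read from the other strand as CATCTG) and also CATATG, the Pou4f pattern ATAATTAAT with at most 1 mismatch and the Gfi1 patterns AATCACAGC or otherwise AATCACTGC, on either strand. The first 3 were the strongest sites, 1 per gene, with an Atoh1 peak in all 4 lines. They lay in an intron of Ephb2 4884 bp upstream of one of its starts (chr4:136254764-136254913), between genes 464854 bp from the Efnb2 start (chr8:8174434-8174583), and in an intron of Unc5a (chr13:55072345-55072494).
Ephb2: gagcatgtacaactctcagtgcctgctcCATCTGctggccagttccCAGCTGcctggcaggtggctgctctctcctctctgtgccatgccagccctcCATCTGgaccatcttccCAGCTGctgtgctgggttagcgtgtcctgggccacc
Efnb2: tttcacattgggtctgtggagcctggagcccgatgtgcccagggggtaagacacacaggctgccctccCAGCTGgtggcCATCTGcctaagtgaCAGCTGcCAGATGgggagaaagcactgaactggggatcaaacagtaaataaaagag
Unc5a: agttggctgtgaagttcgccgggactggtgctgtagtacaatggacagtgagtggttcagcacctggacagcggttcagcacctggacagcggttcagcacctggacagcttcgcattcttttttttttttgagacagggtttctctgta

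Here and below, E-boxes are the cores named above, and other forms such as CACCTG were not searched. The Ephb2 and Efnb2 windows held 4 of these cores each. The Unc5a window held none of them, though CACCTG stands in its repeat. The Unc5a window held a 19 bp unit repeated over 57 bp. The fold enrichment at the Ephb2 site was 4.28 for iAtoh1, 7.74 for iG+A, 4.73 for iP+A and 15.1 for iGPA, the last at percentile 98.8 of its list. The Efnb2 site had folds of 6.72, 5.07, 9.25 and 14.6 in the same order, and the Unc5a site 3.18, 5.07, 5.81 and 9.60. The sites were picked by their iGPA fold, so the high iGPA values are no result. None of the 3 had a Pou4f3 or Gfi1 peak. Fold enrichment is the height of a peak over the local background and depends on the depth of each list, so its percentile within a list was used to set lists side by side. The Unc5a site stood at percentiles 88.8, 93.1 and 95.7 of the iG+A, iP+A and iGPA lists and lower in iAtoh1.

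The next 3 were the strongest sites where iGPA had Atoh1 together with Pou4f3 while iAtoh1 had no peak. They lay in another intron of Ephb2 (chr4:136294334-136294483), upstream of Robo1 (chr16:72536210-72536359) and in an intron of Slit1 (chr19:41745173-41745322).
Ephb2: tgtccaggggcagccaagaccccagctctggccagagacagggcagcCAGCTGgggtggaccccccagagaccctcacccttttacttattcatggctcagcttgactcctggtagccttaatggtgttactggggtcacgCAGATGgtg
Robo1: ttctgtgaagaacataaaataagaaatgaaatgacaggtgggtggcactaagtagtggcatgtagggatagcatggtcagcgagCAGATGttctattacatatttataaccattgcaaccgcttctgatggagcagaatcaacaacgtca
Slit1: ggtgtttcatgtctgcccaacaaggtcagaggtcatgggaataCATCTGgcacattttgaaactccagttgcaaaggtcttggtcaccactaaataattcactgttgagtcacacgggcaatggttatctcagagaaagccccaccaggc

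These windows held 2, 1 and 1 E-boxes and no Pou4f pattern. At the Ephb2 site Atoh1 was called in iP+A (fold 9.14, percentile 98.3) and iGPA (6.77, percentile 89.6), and Pou4f3 was called in iP+A (5.09) and iGPA (6.41) but not in iPou4f3 or iG+P. At the Slit1 site Atoh1 was likewise called in iP+A (4.95) and iGPA (4.55), and Pou4f3 in iPou4f3 (3.68), iP+A (3.28) and iGPA (4.81). The Robo1 site had both factors in iGPA alone, with folds of 4.80 for Atoh1 and 3.79 for Pou4f3.

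The strongest sites with Pou4f3 in all 4 lines and no Atoh1 lay at Sema6d, Epha4 and Unc5b. The Sema6d site overlapped an untranslated region, had folds of 13.8 in iPou4f3 and 9.85 in iG+P, then 9.06 in iP+A and 16.0 in iGPA, and its sequence is not printed. The other 2 lay in an intron of Epha4 (chr1:77500852-77501001) and upstream of Unc5b (chr10:60323372-60323521).
Epha4: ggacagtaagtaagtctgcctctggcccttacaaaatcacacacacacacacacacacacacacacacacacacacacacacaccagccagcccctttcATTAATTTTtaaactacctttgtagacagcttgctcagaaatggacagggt
Unc5b: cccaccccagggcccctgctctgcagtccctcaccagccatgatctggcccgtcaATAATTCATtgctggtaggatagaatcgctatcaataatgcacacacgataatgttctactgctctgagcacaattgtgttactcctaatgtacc

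Both windows held 1 Pou4f pattern and none of the E-box cores searched, and the Epha4 window held a 2 bp repeat of 47 bp beside its pattern. Fold enrichment at the Epha4 site was 7.37, 8.21, 7.36 and 11.9 in the same order of lists, and at the Unc5b site 9.03, 9.08, 6.34 and 11.1. All these values lay at or above percentile 93.6 of their lists.

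The strongest Gfi1 sites were in an intron of Sema5a (chr15:32175987-32176136), upstream of Efna5 (chr17:63232879-63233028) and far upstream of Plxna2 (chr1:196049362-196049511).
Sema5a: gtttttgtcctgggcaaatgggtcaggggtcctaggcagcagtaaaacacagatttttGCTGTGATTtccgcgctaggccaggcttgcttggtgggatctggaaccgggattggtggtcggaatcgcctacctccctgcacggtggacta
Efna5: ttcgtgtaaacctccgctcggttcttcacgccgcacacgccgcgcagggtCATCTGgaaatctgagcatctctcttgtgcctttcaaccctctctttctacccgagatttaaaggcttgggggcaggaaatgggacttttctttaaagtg
Plxna2: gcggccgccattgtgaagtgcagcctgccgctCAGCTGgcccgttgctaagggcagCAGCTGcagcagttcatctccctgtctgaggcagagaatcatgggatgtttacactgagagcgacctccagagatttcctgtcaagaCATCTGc

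The Sema5a window held a Gfi1 pattern and had the highest Gfi1 fold at these genes (10.8, percentile 94.4), with low Pou4f3 folds of 2.61 in iPou4f3 and 2.63 in iG+P. The Efna5 and Plxna2 windows held 1 and 3 E-boxes and no Gfi1 pattern, and their Gfi1 fold was 6.16. The Efna5 site had no peak in another list, whereas the Plxna2 site had an Atoh1 peak in all 4 lines and a Pou4f3 peak in iPou4f3.

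Peaks were spread unevenly over the genes. Kept peaks of each gene in each list are shown in the map of peaks by gene. Distinct sites numbered a median of 7.00 per guidance gene, against 1.00 over all protein-coding genes and 3.00 over genes of like length. The 10 genes with the most sites held 192 of the 399 (48.1%).

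**Figure D1:**
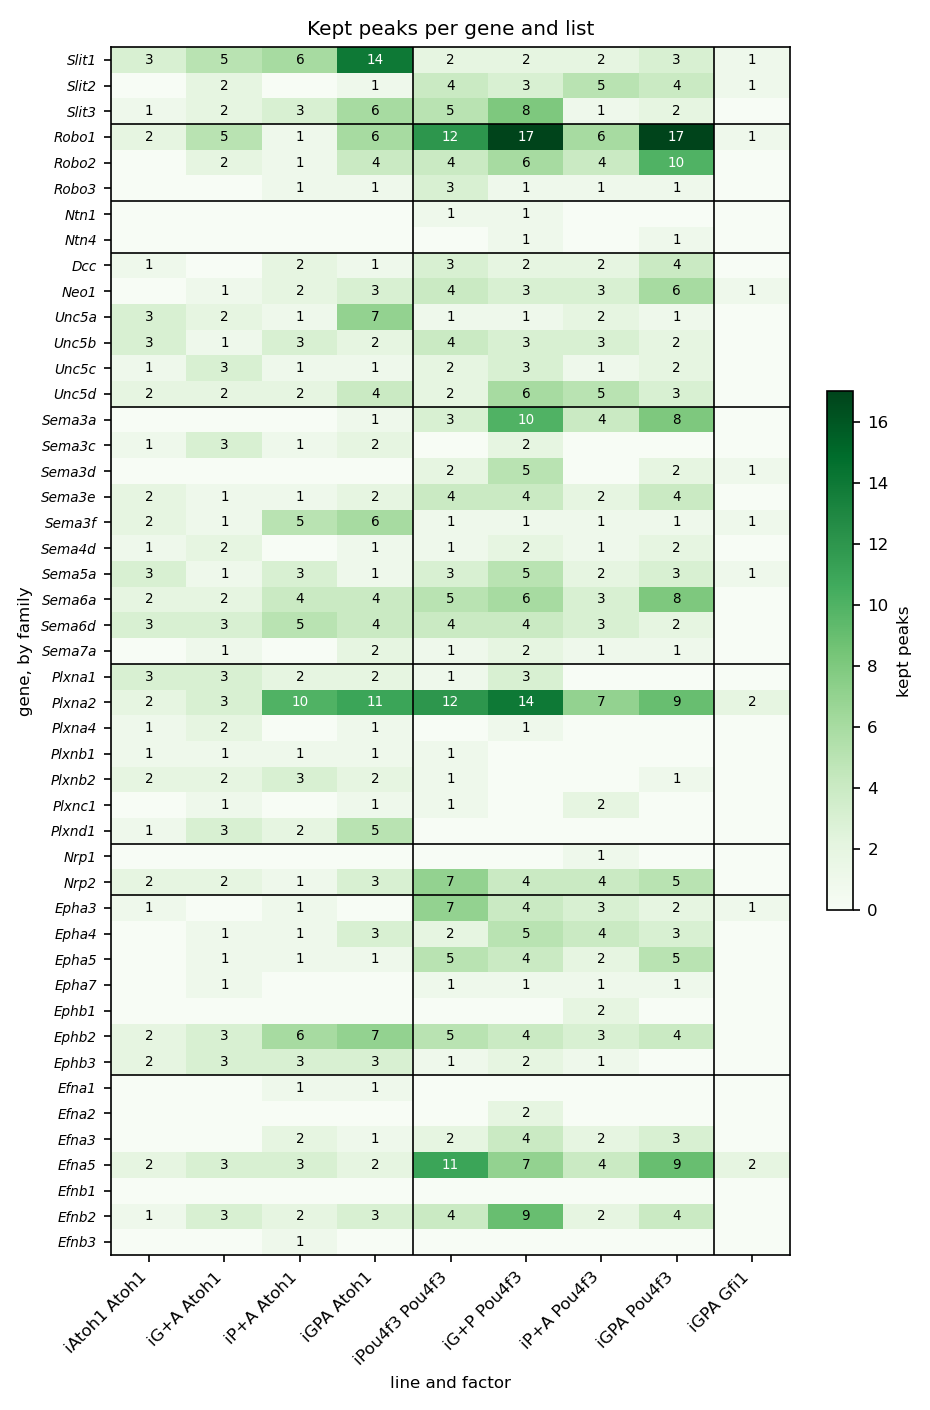
Number of kept peaks (colour and digits, blank for 0) nearest to a start of each of the 47 genes (rows, grouped by family) in each list (columns: 4 Atoh1, 4 Pou4f3, 1 Gfi1). Slit1 reached 14 Atoh1 peaks in iGPA, Robo1 17 Pou4f3 peaks in iG+P and in iGPA, and Efnb1 had no peak in any list.

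Slit1 (chr19:41674747-41818155), a secreted repellent, had Atoh1 peaks at 14 of its 17 sites. Its Atoh1 peaks numbered 3 for iAtoh1, 5 for iG+A, 6 for iP+A and 14 for iGPA. Its Pou4f3 peaks numbered 2 for iPou4f3, 2 for iG+P, 2 for iP+A and 3 for iGPA, beside 1 Gfi1 peak. The lists are given in these orders for the other genes. All its 17 sites lay in introns. Slit2, a ligand of the same family named after its values were seen, had 0, 2, 0 and 1 Atoh1 peaks and 4, 3, 5 and 4 Pou4f3 peaks in the same orders. Slit3 stood between them, with 1, 2, 3 and 6 Atoh1 peaks and 5, 8, 1 and 2 Pou4f3 peaks.

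By the nearest-start rule the ROBO receptors were on the Pou4f3 side. Robo1 (chr16:72663394-73046340) had the most sites of the list (33), with 12, 17, 6 and 17 Pou4f3 peaks, 2, 5, 1 and 6 Atoh1 peaks and 1 Gfi1 peak, and 20 of its sites lay over 100 kb from a start. Robo2 had 4, 6, 4 and 10 Pou4f3 peaks and 0, 2, 1 and 4 Atoh1 peaks. For Robo2 this balance depended on the rule. Its body held 1, 5, 3 and 7 Pou4f3 peaks and 2, 4, 1 and 6 Atoh1 peaks, many of them nearer to another start. The Robo1 body held 4, 7, 2 and 5 Pou4f3 peaks and 0, 3, 0 and 2 Atoh1 peaks. Robo1 and Robo2 are neighbours on chromosome 16, 0.846 Mb apart. Robo3, which commissural axons need to cross the midline, had 6 Pou4f3 peaks and 2 Atoh1 peaks in all.

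The netrins had few peaks and their receptors more. Ntn1 and Ntn4 had 2 Pou4f3 peaks each and no Atoh1 peak by the nearest start, though their bodies held Atoh1 peaks in all 4 lines. The repellent receptor Unc5d had 2, 2, 2 and 4 Atoh1 peaks and 2, 6, 5 and 3 Pou4f3 peaks at 13 sites, the farthest 884228 bp from its start. Dcc, Neo1 and Unc5c had 8 sites each. The attractive receptor Dcc had 1, 0, 2 and 1 Atoh1 peaks and 3, 2, 2 and 4 Pou4f3 peaks, all over 100 kb from a start. Neo1 had 0, 1, 2 and 3 Atoh1 peaks, 4, 3, 3 and 6 Pou4f3 peaks and 1 Gfi1 peak, and 4 of its 8 sites had both Atoh1 and Pou4f3. Unc5c had 1, 3, 1 and 1 Atoh1 peaks and 2, 3, 1 and 2 Pou4f3 peaks.

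The semaphorins differed by gene, with an Atoh1 peak at 40 and a Pou4f3 peak at 52 of their 82 sites. Sema3a, a secreted repellent that signals through Nrp1, had 3, 10, 4 and 8 Pou4f3 peaks and a single Atoh1 peak, in iGPA, which coincided with a Pou4f3 site. Its 11 sites lay in introns, 6 of them over 100 kb from a start. Sema3d, its neighbour on chromosome 5, had 2, 5, 0 and 2 Pou4f3 peaks and no Atoh1 peak. Sema3f, a ligand of Nrp2, went the other way, with 2, 1, 5 and 6 Atoh1 peaks and 1 Pou4f3 peak in each of the 4 lists, all 4 at 1 site. Sema3d and Sema3f were named after their values were seen. The transmembrane Sema6a had 2, 2, 4 and 4 Atoh1 peaks and 5, 6, 3 and 8 Pou4f3 peaks, and Sema6d had 3, 3, 5 and 4 and 4, 4, 3 and 2.

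Among their receptors Plxna2 (chr1:196446023-196643063), a plexin that binds class 6 and, with neuropilins, class 3 semaphorins, was second of the list in sites. It had 2 and 3 Atoh1 peaks in iAtoh1 and iG+A and 10 and 11 in iP+A and iGPA, with 12, 14, 7 and 9 Pou4f3 peaks and 2 Gfi1 peaks. Its Atoh1 counts were thus higher in both lines with Pou4f3 than in both without. Of its 28 sites 14 lay over 100 kb from a start, and its strongest Pou4f3 site, in an intron, had a fold of 18.9 in iGPA, 14.7 in iPou4f3, 12.9 in iG+P and 5.55 in iP+A, beside an Atoh1 fold of 3.20 in iGPA. Plxnd1, the receptor of Sema3e, had 1, 3, 2 and 5 Atoh1 peaks and 0 Pou4f3 peaks. It was chosen after its values were seen, like Efna3 below. Nrp2 had 2, 2, 1 and 3 Atoh1 peaks and 7, 4, 4 and 5 Pou4f3 peaks.

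The Eph receptor with the most sites was Ephb2 (15), with 2, 3, 6 and 7 Atoh1 peaks and 5, 4, 3 and 4 Pou4f3 peaks, 12 of its sites in introns. Epha4 had 0, 1, 1 and 3 Atoh1 peaks and 2, 5, 4 and 3 Pou4f3 peaks. Among the ephrins, the membrane-tethered Efna5 had 2, 3, 3 and 2 Atoh1 peaks, 11, 7, 4 and 9 Pou4f3 peaks and 2 Gfi1 peaks at 21 sites. Efnb2 had 1, 3, 2 and 3 Atoh1 peaks and 4, 9, 2 and 4 Pou4f3 peaks at 16. Efnb1, on the X chromosome, had no kept peak in any list.

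Per family, sites were counted by the nearest-start rule, on which the balance at Robo2 depended. Sites with a Pou4f3 peak outnumbered those with an Atoh1 peak most clearly at the ROBO receptors (45 against 13), the ephrins (34 against 15) and the Eph receptors (39 against 21). They were near in number at the SLIT ligands (22 against 24) and the netrin receptors (32 against 27), and fewer at the plexins (29 against 35). The semaphorins had 52 against 40. Of the 47 genes, 37 had sites of both factors, 6 had Pou4f3 sites and no Atoh1 site, 3 had Atoh1 sites and no Pou4f3 site, and 1 had no site. This was not tallied over other genes and depended on the nearest-start rule. Ntn1, Ntn4 and Ephb1 were among the 6, but their bodies held Atoh1 peaks in all 4 lines. Both factors were found at 11 of the 53 plexin sites, 10 of the 82 semaphorin sites and 2 of the 45 SLIT sites.

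The share of a gene's sites with an Atoh1 peak varied with base composition, a relation looked for after the values were seen. Over the 33 genes with 5 or more sites, it rose with GC content (Spearman rho 0.73) and was lower in longer genes (rho -0.562). These are correlations across genes that share libraries, and GC content and length go together in such genes. Over 3483 other protein-coding genes with 5 or more sites the same values were 0.347 and -0.222, so a relation of this sign was not limited to guidance genes. At the low end stood Sema3d (0% of 7 sites, GC 36.5%), Sema3a (9.09% of 11, GC 35.9%) and Epha3 (11.1% of 9, GC 36.1%). At the high end stood Sema3f (100% of 9, GC 56.0%) and Plxnd1 (100% of 7, GC 56.1%), while Efna3 (33.3% of 6, GC 58.1%) and Sema3c (4 of 5 sites, GC 37.5%) lay off the trend.

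**Figure D2:**
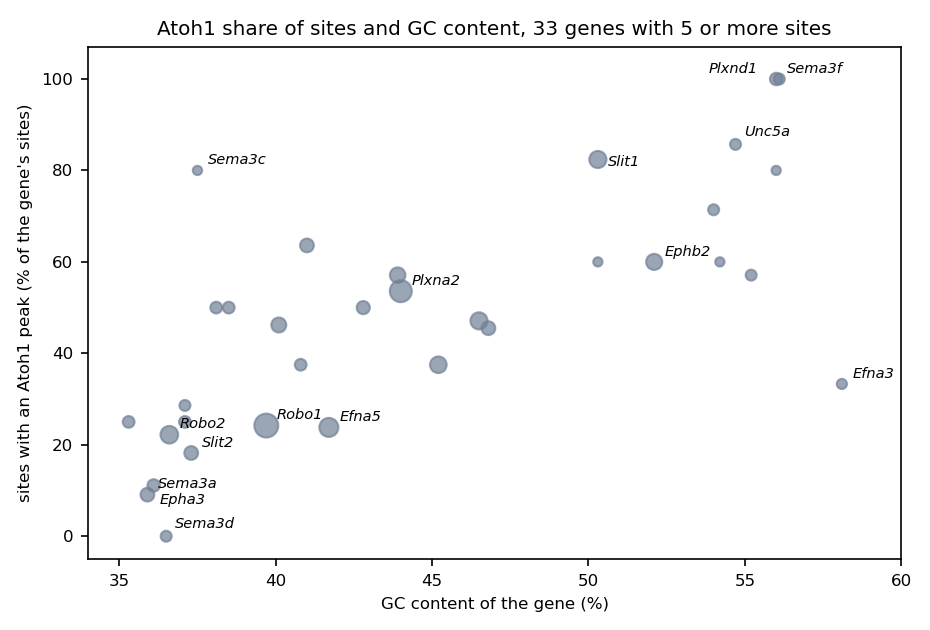
Share of each gene's sites with an Atoh1 peak in any list (vertical axis, %) against the GC content of the gene (horizontal axis, %), 1 point per gene with 5 or more sites, with area in proportion to the number of sites. The share ran from 0% at Sema3d to 100% at Sema3f and Plxnd1, and Efna3 and Sema3c stood away from the other points.

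The share of guidance genes with a peak was compared with all protein-coding genes and with those of like length, since these genes are long (median 154 kb against 15.5 kb). Like-length shares are means over the 200 genes nearest in length to each guidance gene. For Atoh1, 27 of 47 guidance genes had a peak in iAtoh1 (57.4%, 42.2 to 71.7), against 25.5% of all coding genes and 41.3% at like length. In iG+A, 33 of 47 had one (70.2%, 55.1 to 82.7), against 35.3% and 50.4%. In iP+A it was again 33, against 32.6% and 50.6%, and in iGPA 37 (78.7%, 64.3 to 89.3), against 42.8% and 61.8%. In all 4 lists the interval lay above the like-length share. The 47 genes were chosen with earlier results of these data known, so this comparison is no independent evidence, here or for Pou4f3 and Gfi1.

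For Pou4f3, 37 guidance genes had a peak in iPou4f3 (78.7%, 64.3 to 89.3), against 41.1% of all coding genes and 64.0% at like length. In iG+P it was 38 (80.9%, 66.7 to 90.9), against 43.8% and 68.3%, and in iP+A 34 (72.3%, 57.4 to 84.4), against 29.8% and 52.1%. In iGPA it was 33 (70.2%, 55.1 to 82.7), against 32.1% and 57.9%. The interval included the like-length share in iG+P and iGPA. For Gfi1 it was 10 of 47 (21.3%, 10.7 to 35.7), against 8.98% and 17.7%, also inside the interval. The value for the guidance genes was the higher in all 9 lists, but the lists share lines, sites and the same 47 genes. With only peaks of a −log10 p of at least 10, the interval lay above the like-length share in 4 lists, and with all called peaks in 5, in place of 6.

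**Figure D3:**
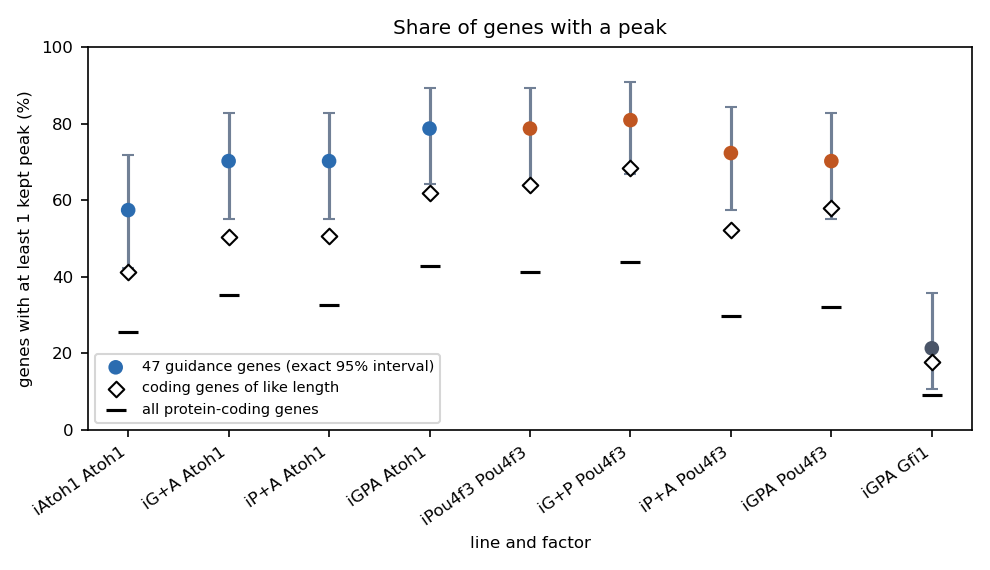
Share of genes with at least 1 kept peak (vertical axis, %) in each list (horizontal axis). Filled points are the 47 guidance genes with exact 95% intervals, diamonds are coding genes of like length and short black lines all protein-coding genes. The points lay above the diamonds in all 9 lists, and the interval reached the diamond in iG+P and iGPA Pou4f3 and in iGPA Gfi1.

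Counted per stretch of genome, the picture was another. The territory in which a guidance gene holds the nearest start covered 14.1 Mb (0.531% of the genome). Atoh1 peaks there were thinner than over the genome, at 0.605 (iAtoh1), 0.652 (iG+A), 0.815 (iP+A) and 0.861 (iGPA) times its density. Pou4f3 peaks were at 1.11 times in iPou4f3 and 0.935 in iG+P, then 0.992 in iP+A and 1.34 in iGPA, with Gfi1 peaks at 0.750. Against genes of like length the number of peaks was 1.25 to 1.46 times for Atoh1, 1.49 to 1.82 times for Pou4f3 and 1.19 times for Gfi1. Against genes of like territory it was 1.19 to 1.54 times for Atoh1, 1.34 to 1.64 times for Pou4f3 and 1.27 times for Gfi1. The low Atoh1 densities thus held against the whole genome and not against genes of like territory.

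Of the 399 sites, 53.4% (48.4 to 58.4) were in Pou4f3 lists only, with neither Atoh1 nor Gfi1, against 41.8% at all other genes, and 32.3% (27.8 to 37.2) in Atoh1 lists only, against 37.5%. Both factors, in any line, were found at 49 sites (12.3%, 9.23 to 15.9), against 18.3%. Sites lay far from starts. Within 1 kb of a start were 55 sites at 34 genes (13.8%, 10.6 to 17.6), against 21.2% at other genes, and over 100 kb away were 99 sites at 18 genes (24.8%, 20.6 to 29.4), against 10.1%. The median distance was 28729 bp, against 10465 bp, and 55.6% of the sites lay in an intron of the gene itself. By the nearest-start rule the territory of a gene bounds these distances. Its median was 161 kb at guidance genes, against 34.5 kb over coding genes. The distances were not set against genes of like territory. The plot of distances shows the sites of the genes with the most sites.

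**Figure D4:**
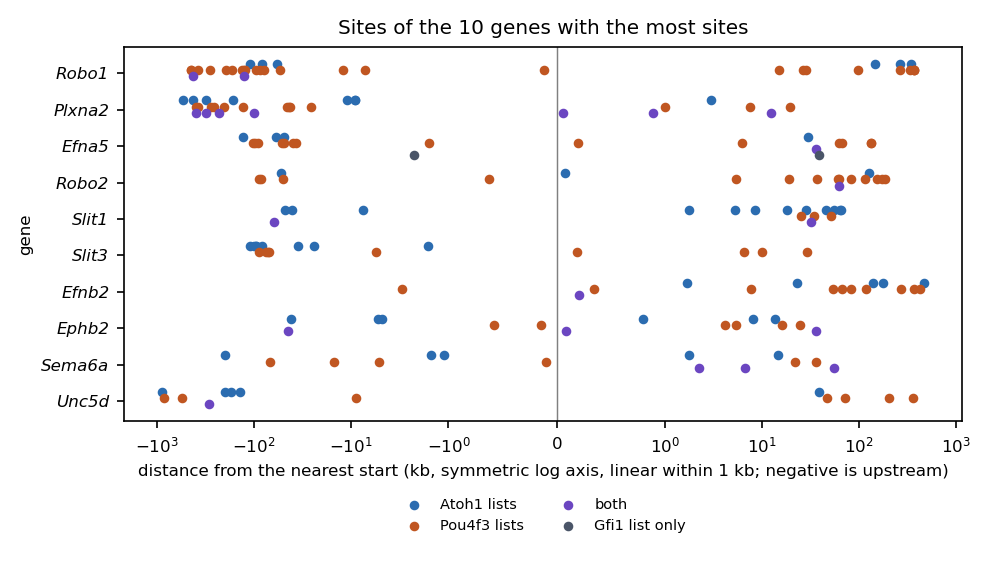
Distance of each site from its nearest start (horizontal axis, kb, symmetric log scale that is linear within 1 kb) for the 10 genes with the most sites (rows). Colours mark sites with Atoh1 peaks, Pou4f3 peaks, both, or Gfi1 alone. Slit1 sites were mostly of Atoh1, Robo1 and Robo2 sites mostly of Pou4f3, and Plxna2 had sites of Atoh1, of Pou4f3 and of both far upstream.

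Lines that differ by 1 factor were compared next, to see how peaks at guidance genes changed with that factor. With Pou4f3 added, Atoh1 peaks at these genes went from 50 in iAtoh1 to 82 in iP+A (1.64 times, while the list grew 1.22 times) and from 71 in iG+A to 120 in iGPA (1.69 times, against 1.28). With Gfi1 added they went from 50 to 71 in iG+A (1.42 times, against 1.32) and from 82 to 120 in iGPA (1.46 times, against 1.38). As a share of the Atoh1 list, guidance peaks made up 0.321% (0.238 to 0.423) for iAtoh1, 0.346% (0.271 to 0.437) for iG+A, 0.433% (0.344 to 0.537) for iP+A and 0.457% (0.379 to 0.547) for iGPA. The intervals of the 4 lists overlapped.

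With Pou4f3 added to iAtoh1, 21 guidance genes had more Atoh1 peaks and 7 fewer, and 8 gained their first (Robo2, Robo3, Neo1, Epha4, Epha5, Efna1, Efna3 and Efnb3). With Pou4f3 added to iG+A, 23 had more and 8 fewer, and Robo3, Dcc, Sema3a, Efna1 and Efna3 gained their first. The tally with Gfi1 added was alike, with 21 more, 7 fewer and 8 gaining their first over iAtoh1, and 22, 9 and 6 over iP+A. Over all coding genes the share with an Atoh1 peak also rose, from 25.5% (iAtoh1) to 32.6% (iP+A) or 35.3% (iG+A). In iGPA it was 42.8%. Genes with more or fewer peaks were not tallied over other genes. Robo3, Efna1 and Efna3 were in both lists of genes gaining with Pou4f3. Efna1, a ligand of EphA receptors, had a single site, 347 bp from its start.

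Of the Atoh1 peaks in iAtoh1 at guidance genes, 31 of 50 (62.0%, 47.2 to 75.3) were found again in iP+A, against 49.9% at other genes. Of those in iG+A, 44 of 71 (62.0%, 49.7 to 73.2) were found again in iGPA, against 53.1%. Conversely, 36.6% (26.2 to 48.0) of the iP+A peaks were present in iAtoh1, against 40.7% at other genes, and 36.7% (28.1 to 45.9) of the iGPA peaks in iG+A, against 41.5%. Across the lines without and with Gfi1, 36.6% (25.5 to 48.9) of the iG+A peaks were present in iAtoh1, against 39.9%, and 45.0% (35.9 to 54.3) of the iGPA peaks in iP+A, against 41.9%. All 4 intervals included the value at other genes. Peaks found in both lists stood higher in their list, at a median percentile of 74.6 against 43.1 in iP+A.

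Sites with Atoh1 in iP+A and iGPA and in neither iAtoh1 nor iG+A numbered 22 at 13 guidance genes, which was 12.2% (7.82 to 17.9) of the Atoh1 sites there, against 7.97% at other genes. Plxna2 had 5 of them, and Slit1 and Ephb2 3 each. Of the 22, 10 (45.5%, 24.4 to 67.8) had a Pou4f3 peak in some list, against 61.3% at other genes, and 12 had none, among them the Efna1 site, a site 641 bp upstream of a Robo3 start and a site 306 bp from a Sema3f start. The reverse pattern, Atoh1 in iAtoh1 and iG+A alone, was seen at 3 sites (1.67%, 0.345 to 4.79), against 2.38%. Atoh1 in iG+A and iGPA and neither of the lines without Gfi1 was seen at 14 sites (7.78%, 4.32 to 12.7), against 6.76%.

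Pou4f3 peaks at guidance genes went from 132 in iPou4f3 to 90 in iP+A with Atoh1 added (0.682 times, the list 0.761) and from 162 in iG+P to 133 in iGPA (0.821 times, the list 0.575). The direction of the second turned with the setting, from 51 to 70 with only peaks of a −log10 p of at least 10 and from 82 to 119 with lists cut to equal length. With Gfi1 added they went from 132 to 162 in iG+P (1.23 times, the list 1.45), which also turned, from 55 to 51 and from 103 to 82 under the same settings. From iP+A to iGPA they went from 90 to 133 (1.48 times, the list 1.10), with this direction in all 7 alternatives. Guidance peaks made up 0.588% (0.493 to 0.697) of the list for iPou4f3, 0.496% (0.423 to 0.579) for iG+P, 0.527% (0.424 to 0.647) for iP+A and 0.709% (0.594 to 0.840) for iGPA. The intervals of iG+P and iGPA did not overlap. Of the iG+P peaks, 54.9% (46.9 to 62.8) were found again in iGPA, against 41.3% at other genes. Robo1 had 17 peaks in each of these lists, 11 of them at sites found in both, and Robo2 had 6 and 10, whereas Slit3 had 8 and 2 and Efnb2 9 and 4.

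Of the iP+A Pou4f3 peaks 62.2% (51.4 to 72.2) were present in iPou4f3, against 57.5% at other genes. Of the iGPA peaks 66.9% (58.2 to 74.8) were present in iG+P, against 71.3%, and 42.1% (33.6 to 51.0) in iP+A, against 48.6%. Of the iG+P peaks 47.5% (39.6 to 55.5) were present in iPou4f3, against 43.1%. These intervals too included the value at other genes. Sites with Pou4f3 in iP+A and iGPA and in neither line without Atoh1 numbered 6 (2.26%, 0.835 to 4.86), against 1.46% at other genes, at Epha4, Epha7, Ephb2, Robo1, Sema3a and Slit1. Sites with Pou4f3 in iG+P and iGPA and in neither line without Gfi1 numbered 26 at 16 genes (9.81%, 6.51 to 14.0), against 5.31%. Pou4f3 was found in all 4 lines at 40 sites of 25 genes, 15.1% of its sites there against 14.8% at other genes, and Atoh1 at 19 sites of 15 genes, 10.6% against 10.7%. No site was found in all 8 lists of these 2 factors (upper bound 0.920%, against 0.268% at other genes), and 180 sites were found in 1 list only (45.1%, against 46.9%).

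In iGPA, 20 of the 120 Atoh1 peaks at guidance genes had a Pou4f3 peak (16.7%, 10.5 to 24.6), against 15.3% at other genes. Of these, 17 had no Atoh1 peak in iAtoh1 (14.2%, 8.47 to 21.7, against 12.3%), at 10 genes. They were Efna3, Efna5, Epha4, Ephb2, Neo1, Plxna2, Robo1, Sema3a, Sema6a and Slit1. The 10 made up 21.3% (10.7 to 35.7) of the guidance genes, against 8.55% of all coding genes, 19.2% of genes of like length and 20.2% of genes of like territory. With starts of protein-coding genes alone there were 28 such peaks at 17 genes, and with only peaks of a −log10 p of at least 10 there were 9. The study named axon guidance among the terms of its co-bound genes, so the list is no independent evidence for this count. Of the 17 peaks, 9 were present in the Atoh1 list of iP+A (52.9%, 27.8 to 77.0, against 57.5% at other genes). In that of iG+A 0 were present (upper bound 19.5%, against 11.3%). Pou4f3 was present at 7 of the 17 in iPou4f3 (41.2%, 18.4 to 67.1, against 48.8%) and at 6 in iG+P (35.3%, 14.2 to 61.7, against 59.1%). The most frequent class was Atoh1 without Pou4f3 and without an iAtoh1 peak, with 71 of the 120 peaks (59.2%, 49.8 to 68.0), against 56.4% at other genes.

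The sites found in 6 or more lists numbered 9, and were described after their values were seen. The site 24223 bp upstream of Sema3f was found in 8 of the 9 lists. Its Atoh1 fold was 2.93 in iAtoh1 (percentile 33.9), 10.5 in iP+A (99.0) and 16.4 in iGPA (99.1), with no peak in iG+A. Its Pou4f3 fold was 3.92 for iPou4f3 (68.7), 4.32 for iG+P (84.1), 8.72 for iP+A (98.6) and 12.1 for iGPA (95.6), and its Gfi1 fold 5.06 (67.3). Both factors thus ranked higher in the lines that carried both than in the lines that carried only one of them. At the site 4441 bp upstream of Efna3, Pou4f3 stood at percentiles 99.5, 99.8, 98.7 and 98.9 of its 4 lists, and Atoh1 was called only in iP+A (fold 3.23) and iGPA (4.13). The intronic Efna5 site had the same pattern, with Pou4f3 folds of 7.13, 8.10, 6.79 and 14.1 and Atoh1 folds of 3.23 in iP+A and 4.18 in iGPA. The sequences are those of chr9:107636954-107637103, chr3:89131253-89131402 and chr17:63193903-63194052, with capitals as above.
Sema3f: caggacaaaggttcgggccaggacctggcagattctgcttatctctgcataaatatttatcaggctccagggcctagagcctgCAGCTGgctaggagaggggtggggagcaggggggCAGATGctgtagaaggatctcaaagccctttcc
Efna3: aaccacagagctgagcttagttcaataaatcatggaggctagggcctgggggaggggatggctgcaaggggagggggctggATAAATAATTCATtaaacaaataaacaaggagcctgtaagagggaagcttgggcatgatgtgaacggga
Efna5: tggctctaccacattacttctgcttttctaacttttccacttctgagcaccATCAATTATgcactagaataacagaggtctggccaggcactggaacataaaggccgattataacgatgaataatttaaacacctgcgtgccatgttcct

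The Sema3f window held E-boxes and no Pou4f pattern. The Efna3 and Efna5 windows held the Pou4f pattern and none of the E-box cores searched, though CACCTG stands in the Efna5 window. An intronic Ephb2 site, 35813 bp from a start, also had Pou4f3 in all 4 lists and Atoh1 in iP+A and iGPA alone. The intronic Sema3e site was found in 7 lists, with Atoh1 folds of 3.54 in iAtoh1, 4.95 in iP+A and 4.92 in iGPA and Pou4f3 folds from 3.20 to 3.68, and the Plxna2 site was the Gfi1 site printed above. The Epha3 site in 6 lists lay in a short tandem repeat, the Ephb3 site 95 bp upstream of its start had Atoh1 in all 4 lines at percentiles from 13.9 to 85.6, and the Unc5a site 3 bp from its start had Pou4f3 in all 4 lists at folds of at most 3.92.

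**Figure D5:**
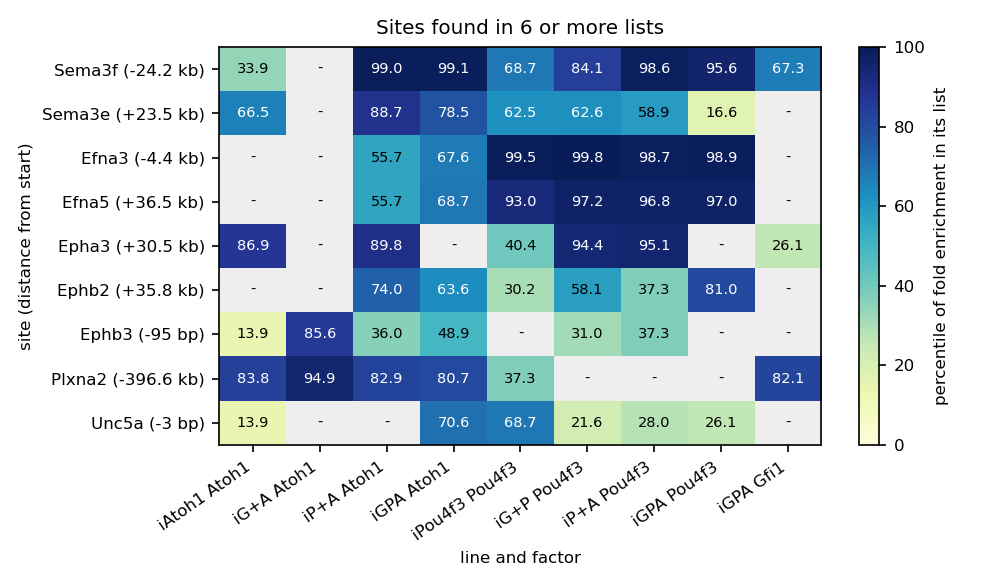
Percentile of fold enrichment within its list (colour and digits, a dash where no peak was called) for the 9 sites found in 6 or more lists, with the distance from the nearest start. Sema3f stood at percentile 99.0 or above for Atoh1 in iP+A and iGPA, and the Efna3 and Efna5 sites had Atoh1 in those lists only.

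E-boxes, counted by their 6-letter cores, were found at most Atoh1 peaks of guidance genes. Within 250 bp around the summit, 82.0% (68.6 to 91.4) of the peaks in iAtoh1 held one, against 62.8% at other genes. The values were 90.1% (80.7 to 95.9) against 65.2% in iG+A, 74.4% (63.6 to 83.4) against 66.5% in iP+A, and 88.3% (81.2 to 93.5) against 75.1% in iGPA. The interval lay above the other genes in all but iP+A. With the longer E-box pattern named for Atoh1 the intervals included the other genes, at 15.8% (9.81 to 23.6) against 18.8% in iGPA and 9 of 50 peaks (8.58% to 31.4%) against 15.0% in iAtoh1. This pattern was matched letter by letter, with no mismatch allowed. The study's own motif search found that motif at most Atoh1 peaks of iGPA, so its shares and these are not alike in measure. In same-size windows 1000 bp to each side, 32.0% to 40.8% held an E-box at guidance genes, against 31.9% to 32.5% at other genes. The highest was in iGPA, at 40.8% (34.6 to 47.3) against 32.5%. In iGPA, 19.2% (12.6 to 27.4) of the guidance peaks lay within 1 kb of a start, against 27.2% at other genes. Of those over 1 kb away 89.7% (81.9 to 94.9) held an E-box, against 79.8% at other genes. In iAtoh1, where the share near a start was close (20.0% against 20.8%), it was 87.5% (73.2 to 95.8) against 61.6%.

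The Pou4f pattern stood at 51.5% (42.7 to 60.3) of the Pou4f3 peaks in iPou4f3, against 41.9% at other genes, and at 54.9% (46.9 to 62.8) against 41.8% in iG+P. It stood at 48.9% (38.2 to 59.7) against 39.9% in iP+A and at 53.4% (44.5 to 62.1) against 54.5% in iGPA. The windows to the sides also held more at guidance genes, with 15.0% to 19.2% against 9.92% to 10.8%. The share differed by position. In iPou4f3 the pattern was at 60.9% (51.1 to 70.1) of the guidance peaks over 1 kb from a start and at 1 of the 22 nearer ones. Beyond 1 kb the value at other genes was 55.4%, inside the interval. A match of letters is a description and does not show which factor bound there.

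Of the 17 co-bound peaks without an iAtoh1 peak, 13 held an E-box (76.5%, 50.1 to 93.2) and 6 a Pou4f pattern (35.3%, 14.2 to 61.7), against 72.6% and 36.3% at other genes. Of the 71 Atoh1 peaks in iGPA with neither, 90.1% (80.7 to 95.9) held an E-box, against 73.7%.

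Gfi1 had 12 peaks at 10 guidance genes, 2 each at Plxna2 and Efna5. Set against the other iGPA lists, 6 of the 12 stood alone, 4 had Atoh1 only, 1 had Pou4f3 only and 1, at Sema3f, had both. At 3 sites Gfi1 was the only factor in any line. The share with Atoh1 was 41.7% (15.2 to 72.3), against 43.4% at other genes, and with Pou4f3 16.7% (2.09 to 48.4), against 23.7%. Peaks with Atoh1 were at Neo1, Plxna2, Robo1, Sema3f and Slit1. Of all 12 peaks, 3 (at Epha3, Sema3d and Slit2) lay in short tandem repeats, which was 25.0% (5.49 to 57.2), against 5.27% at other genes. A Gfi1 pattern was found at 1 of the 12, in Sema5a, against 7.00% at other genes. Only 1 of the 12 lay within 1 kb of a start (8.33%, 0.211 to 38.5), against 36.3%.

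Other genes of the pathway were counted from 2 fixed lists. Of 33 other guidance ligands and receptors, 15, 19, 18 and 23 had an Atoh1 peak in the 4 Atoh1 lists, which was 45.5% to 69.7%, against 25.5% to 42.8% of all coding genes. Of the same 33, 23, 17, 16 and 17 had a Pou4f3 peak in the 4 Pou4f3 lists, ordered as above, which was 48.5% to 69.7%, against 29.8% to 43.8%. Of 30 intracellular effectors, which carry the signal to the cytoskeleton, 17, 21, 20 and 22 had an Atoh1 peak (56.7% to 73.3%), and 21, 23, 16 and 19 a Pou4f3 peak (53.3% to 76.7%). These shares were not set against genes of like length. For Pou4f3 the 33 other ligands and receptors stood below the 47 genes, at 51.5% (33.5 to 69.2) against 80.9% (66.7 to 90.9) in iG+P and 51.5% against 70.2% (55.1 to 82.7) in iGPA, with overlapping intervals. In the Atoh1 list of iGPA the 33 stood at 69.7% (51.3 to 84.4), the effectors at 73.3% (54.1 to 87.7) and the 47 genes at 78.7%.

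The rule by nearest start passed over peaks inside some of the longest genes, because a start of another gene was nearer, most often a noncoding one at the genes named here. Of 708 kept peaks inside the annotated bodies of guidance genes, 195 at 17 genes were nearest to a start of another gene. Ephb1 had 2 peaks by the rule, both in the Pou4f3 list of iP+A, but 32 inside its body, over all 9 lists, with 2, 1, 4 and 10 Atoh1 peaks, 4, 3, 3 and 3 Pou4f3 peaks and 2 Gfi1 peaks. Plxna4 had 5 by the rule and 37 inside its body. Ntn1 had 2 and 8 and Ntn4 had 2 and 10, and the bodies of both held Atoh1 peaks in all 4 lines. With starts of protein-coding genes alone, 1336 peaks lay at guidance genes in place of 852, and Efnb1 still had none. These assignments were added after the values were seen, except for the protein-coding starts. With these starts the count rose over 1.5 times at 19 of the 46 genes with a peak and was the same at 17. Epha7 went from 5 to 56, Epha4 from 19 to 68, Robo2 from 31 to 74, Efna5 from 43 to 87, Nrp2 from 28 to 57 and Slit2 from 20 to 43, whereas Sema3a, Sema3f, Neo1, Dcc and Plxnd1 did not change. The counts given for the genes that changed, and their order, thus depended on the rule.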

How the data were processed

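The data were ChIP-seq peak lists from 17 ChIP and 12 input libraries of 6 cell lines. Per the labels and the methods of the study, the authors trimmed reads with Trimmomatic, aligned them to mm9 with Bowtie2, removed duplicates with Picard, filtered by mapping quality and blacklisted regions, and called peaks with MACS2 on merged replicates against merged input. The deposited peak files give a fold enrichment (a ratio to the local background), a −log10 p, a q value that was not used and a score per peak, and the deposited summit files a position and a signal whose definition was not found and which was not used. The filter that left the kept summits is not given in the sources used here. Summits were not thinned further. Merging hides the spread between replicates, and calls near the threshold depend on depth.

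Each kept summit was given to the nearest transcription start (NCBIM37, GENCODE vM1). Windows of 300 bp that overlapped between lists were joined into sites. Intervals are Clopper-Pearson at 95%. They were computed on counts of peaks, sites or genes, which do not all vary independently, so they cover counting error only. Patterns were searched in 250 bp around summits and in windows 1000 bp to each side. Python 3.11.15, numpy 2.4.6, pandas 2.3.3, scipy 1.17.1, pysam 0.24.0, samtools 1.23.1 and matplotlib 3.10.9 were used, and the scripts were tested on simulated data. The members and lists were chosen with earlier results of these data known. Values in every list were given for the 2 genes with the most sites, ties included, in each of 6 groups (SLIT and ROBO, netrins and receptors, semaphorins, plexins with neuropilins, Eph receptors, ephrins), the 10 with the most sites over all, and any gene without a peak. Named sites were the 3 strongest of each of 4 kinds, 1 per gene. Robo3, the netrins, Slit2, Sema3d, Sema3f, Plxnd1, Efna1, Efna3, the sites in 6 or more lists, the patterns over lines and the relation with GC content were chosen after their values were seen. Alternatives were the strength of peaks, their assignment, list length, window sizes and patterns.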

Additional observations from a re-analysis of the deposited data

Results flagged for a closer look

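The share of the Pou4f3 list that lay at guidance genes moved in opposite directions with the same added factor. With Atoh1 added it changed by -0.0615 percentage points from iPou4f3 to iP+A and by 0.213 from iG+P to iGPA. With Gfi1 added it changed by -0.092 from iPou4f3 to iG+P and by 0.182 from iP+A to iGPA. These differences were not tested, since there was 1 merged list per line, and both pairs of changes come from the same 4 lists.

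Called peaks that the authors did not keep entered the report only through the inserted genes and the alternative with all called peaks. Of these, 45 lay at guidance genes, and 21 of the 45 lay under 300 bp from a kept peak of another list. They numbered 12 in iPou4f3 and 0 in the Gfi1 list. Their median fold enrichment ran from 2.52 to 3.20 in the lists that had any.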

How the results depend on the processing

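Of 265 alternative values for 47 results, 217 stayed within 1.5 times the reported count or within its interval, and 48 moved. The like-length shares have no interval of their own, so the width of an exact interval for 47 genes was set around each. At equal list length the shortest Atoh1 and Pou4f3 lists and the Gfi1 list stayed whole, so their values could not move. Directions between lists held in all 7 alternatives for 6 of the 8 comparisons by 1 factor. They turned for Pou4f3 peaks from iG+P to iGPA (51 to 70 with strong peaks alone, 82 to 119 at equal list length) and from iPou4f3 to iG+P (55 to 51 and 103 to 82). No paired analysis was possible because the replicates that share numbers in the labels had been merged into 1 list before deposit, and for the same reason no replicate could be left out.

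With only peaks of a −log10 p of at least 10, guidance genes with a peak fell to 13 in iAtoh1 and 17 in iP+A for Atoh1, and to 25 in iG+P and 19 in iP+A for Pou4f3. Atoh1 peaks fell to 18, 31, 26 and 60 in iAtoh1, iG+A, iP+A and iGPA, and Pou4f3 peaks to 55 in iPou4f3, 51 in iG+P, 27 with Atoh1 (iP+A) and 70 with all factors (iGPA). The like-length shares became 17.3%, 24.1%, 27.4% and 41.8% for Atoh1, in the same order, and 41.7%, 40.4% and 26.2% for Pou4f3 in iPou4f3, iG+P and iP+A. The share of iGPA peaks found in iP+A became 30.0% for Atoh1 and 30.0% for Pou4f3. For Pou4f3 it became 74.1% of iP+A in iPou4f3, 52.9% of iGPA in iG+P and 70.6% of iG+P in iPou4f3. Co-bound sites fell to 9, and the share near a start to 2.86% for iGPA Pou4f3 and 0 for Gfi1.

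With starts of protein-coding genes alone, Atoh1 peaks were 83 in iAtoh1, 109 in iG+A and 184 in iGPA, Pou4f3 peaks were 201, 268, 139 and 212, Gfi1 peaks 19, and co-bound sites 28 at 17 genes. Within 100 kb of a start 11 co-bound sites were left. At equal list length iG+P had 82 peaks. Within 5 kb of a start lay 32.5% of the iGPA Atoh1 peaks. The longer E-box pattern named for Atoh1, matched letter by letter, was at 15.8% of the peaks in iGPA and 18% in iAtoh1. The exact Pou4f pattern was at 9.02% in iGPA and 10.6% in iPou4f3. In a 100 bp window the Pou4f share in iPou4f3 was 40.2%. No stricter Gfi1 pattern was run. Of the alternatives added after seeing the data, gene bodies gave 7 Gfi1 peaks at 6 genes, and peaks over 1 kb from a start a Pou4f share of 60.9% in iPou4f3. Fewer peaks or other starts are what the first of these settings change by construction, and other causes were not tested.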

Other observations

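The guidance genes also differed in how densely sites lay in their territory. Efna3 had 50.5 sites per 100 kb and Plxnc1 33.7, whereas Dcc had 0.701 and Unc5d 0.711, with 8 and 13 sites. Pou4f patterns were absent from the 71 Atoh1 peaks of iG+A at guidance genes (0 of 71, upper bound 5.06%), against 3.93% at other genes, and present at 15 of 120 in iGPA (12.5%, 7.17 to 19.8), against 9.28%. E-boxes stood at 18.2% (12.0 to 25.8) of the Pou4f3 peaks of guidance genes in iPou4f3, against 27.6% at other genes, and at 17.9% (12.3 to 24.7) in iG+P, against 29.4%. In iP+A and iGPA, which carry Atoh1, they stood at 32.2% (22.8 to 42.9) and 29.3% (21.8 to 37.8), against 33.3% and 36.7%. The windows to the sides of these guidance peaks held E-boxes at 29.4% in iP+A and 32.3% in iGPA, near the peaks themselves. In iPou4f3 and iG+P the sides held them at 29.5% and 30.9%, above the peaks.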
